A study of Mus musculus with 14 samples.

Results

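Chemokine ligands are small secreted or membrane-anchored proteins that draw cells carrying matching receptors along a gradient. The family was taken here as the protein-coding genes whose symbol is Ccl or Cxcl followed by a number, Cx3cl1 or Xcl1. This gave 37 of 45777 genes, of which 21949 were protein coding. A further 3 symbols, Cxcl11, Ccl19-ps1 and Ccl19-ps2, were listed as pseudogenes and were left out. By the RefSeq annotation of GRCm38.p6, 12 of the 37 genes lie on chromosome 11, 10 on chromosome 5, 5 on chromosome 4 and 4 on chromosome 8.

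RNA was sequenced from mouse salivary gland organoids, 3-dimensional cultures grown from gland epithelial cells, and from gland tissue, with 7 groups of 2 libraries. Organoids of the parotid (PG), sublingual (SLG) and submandibular gland (SMG) kept in a differentiation accelerating medium (DAM) were set against SMG organoids kept in a growth and expansion medium (GEM), and against tissue of the same 3 glands. The donors were female wild-type C57BL/6 mice, of 6 to 8 weeks by the study's methods. The column names of the tissue libraries carry 6w, and those of the organoids give no age. The ROCK inhibitor Y-27632 was in the GEM (10 μM) and absent from the DAM, which held the γ-secretase inhibitor DAPT (5 μM), a block on Notch signaling. Both media held 0.5 μM A83-01, an inhibitor of ALK receptors. By the study's figure legends, organoids spent 9 days in the GEM before the DAM, whereas the labels give 3 days in each medium. A figure legend of the study calls the 2 libraries of each gland's organoids in the DAM biologically independent. For the GEM and tissue libraries its legends give no such statement.

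CXC chemokines with the residues ELR before the first cysteines bind Cxcr2 and draw neutrophils. In epithelia they are typical targets of NF-κB, the transcription factor that interleukin 1, tumor necrosis factor and Toll-like receptors turn on. Other members are made without a stimulus: Ccl28 of salivary and other mucosal epithelia draws plasma cells that make IgA, and Cxcl12 and Ccl21a of stroma and lymphatic vessels place lymphocytes and stem cells.

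Libraries held 56383651 to 69139767 read counts in organoids and 57397998 to 71367044 in tissue. The 10 most abundant genes took 7.37% to 9.07% of counts in organoids, against 74.5% to 74.7% in PG tissue, 47% to 49.6% in SLG tissue and 78.7% to 80.2% in SMG tissue. Folds are therefore given after TMM scaling, which lines up the bulk of genes. With whole-library totals in its place, the median gene moved by 1.999 in PG, 1.11 in SLG and 2.06 in SMG on the log2 scale towards organoids over tissue, by 0.98 for SLG over SMG tissue and by −0.87 for PG over SLG tissue. Between organoid groups it moved by at most 0.11. A call needed an edgeR adjusted p below 0.05 together with more than 1 on the log2 scale in either direction, and genes at 0 in some library of a model were left untested. Such members are given by their counts and, where a group was at 0, by a lower bound that sets its libraries at 3 counts each. The bounds rest on counts alone and carry no estimate of the spread between libraries. Values after ± are standard errors (SE) from the edgeR fits, which take in the spread between libraries.

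By whole-library CPM, chemokine transcripts were more abundant in organoids in the DAM than in tissue, and other genes led. The 37 genes summed to 2160 and 2228 CPM (read counts scaled to the size of the whole library) in PG organoids, 1231 and 1236 CPM in SLG organoids, 964 and 1033 CPM in SMG organoids in the DAM and 765 and 787 CPM in SMG organoids in the GEM. The sums were 164 and 166 CPM in PG tissue, 798 and 877 CPM in SLG tissue and 212 and 220 CPM in SMG tissue. The organoids in the DAM lay above all tissue libraries, and SMG organoids in the GEM lay above PG and SMG tissue and below SLG tissue. The order in SLG turned round with the TMM scaling of the organoid and tissue libraries, an alternative added after the values were known. The sums per TMM-scaled library were 986.5 and 975.5 CPM in SLG organoids, against 1436 and 1441 CPM in SLG tissue. They were 1825 and 1765 CPM in PG organoids, against 540 and 539 CPM in PG tissue, and 830 and 896 CPM in SMG organoids in the DAM, against 767 and 794 CPM in SMG tissue. By the deposited TPM, which correct for transcript length, Cxcl5 made up 50.4% of the chemokine sum in the PG organoid library with a usable column and 33.6% in SMG organoids in the DAM. Cxcl17 led with 58.7% in SLG organoids and with 28.2% in the GEM library. In tissue Ccl28 led in all 3 glands, with 39.7% in PG, 73.9% in SLG and 35.3% in SMG tissue. The 5 ELR genes together held 69.7% of chemokine TPM in the PG organoid library, 58.1% and 60.5% in SMG organoids in the DAM and 16.1% and 17.6% in SLG organoids, against 1.81% or less in every tissue library.

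**Figure D1:**
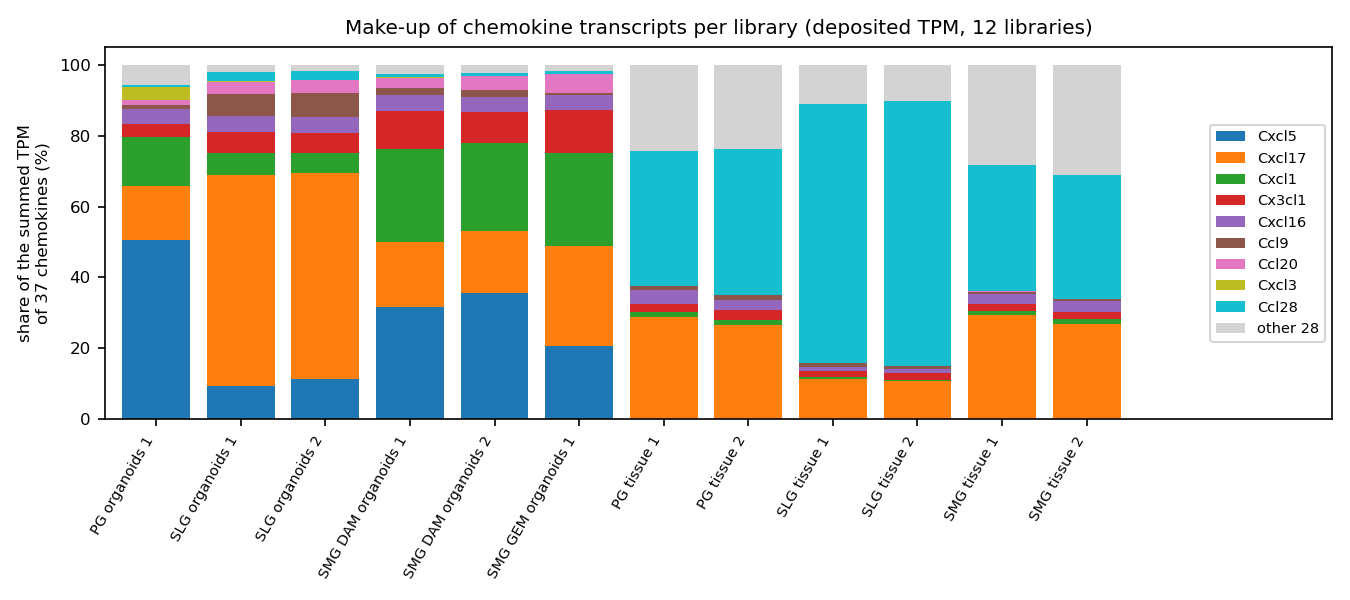
Share of the summed TPM of the 37 chemokines held by 9 named genes and by the other 28, in percent, for the 12 libraries whose TPM column could be matched to a sample. Cxcl5 (blue) and Cxcl17 (orange) are large parts of the organoid bars, with Cxcl5 at 50.4% in PG organoids, and Ccl28 (turquoise) is the largest part of each tissue bar.

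Members were detected unevenly. Of the 37 genes, 12 had counts in all 14 libraries: Cxcl1, Cxcl10, Cxcl16, Cxcl17, Cx3cl1, Ccl5, Ccl6, Ccl9, Ccl25, Ccl27a, Ccl27b and Ccl28. Ccl1 and Ccl26 had none in any library. A further 9 genes were at 0 in all 8 organoid libraries and had counts in tissue, namely Ccl8, Ccl11, Ccl12, Ccl19, Ccl21b, Ccl22, Ccl24, Cxcl13 and Xcl1. The reverse held for Cxcl3 and Cxcl5, which were at 0 in all 6 tissue libraries. In both PG organoid libraries 23 members were above 3 counts, against 19 in SLG organoids, 18 in SMG organoids in the DAM and 17 in the GEM. By CPM of the whole library, 12 members were higher in both PG libraries than in any other organoid library, 4 in both SLG libraries, 3 in both SMG libraries in the DAM and 0 in both SMG libraries in the GEM. The same count was not made over all genes, so this order cannot be read as particular to chemokines.

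**Figure D2:**
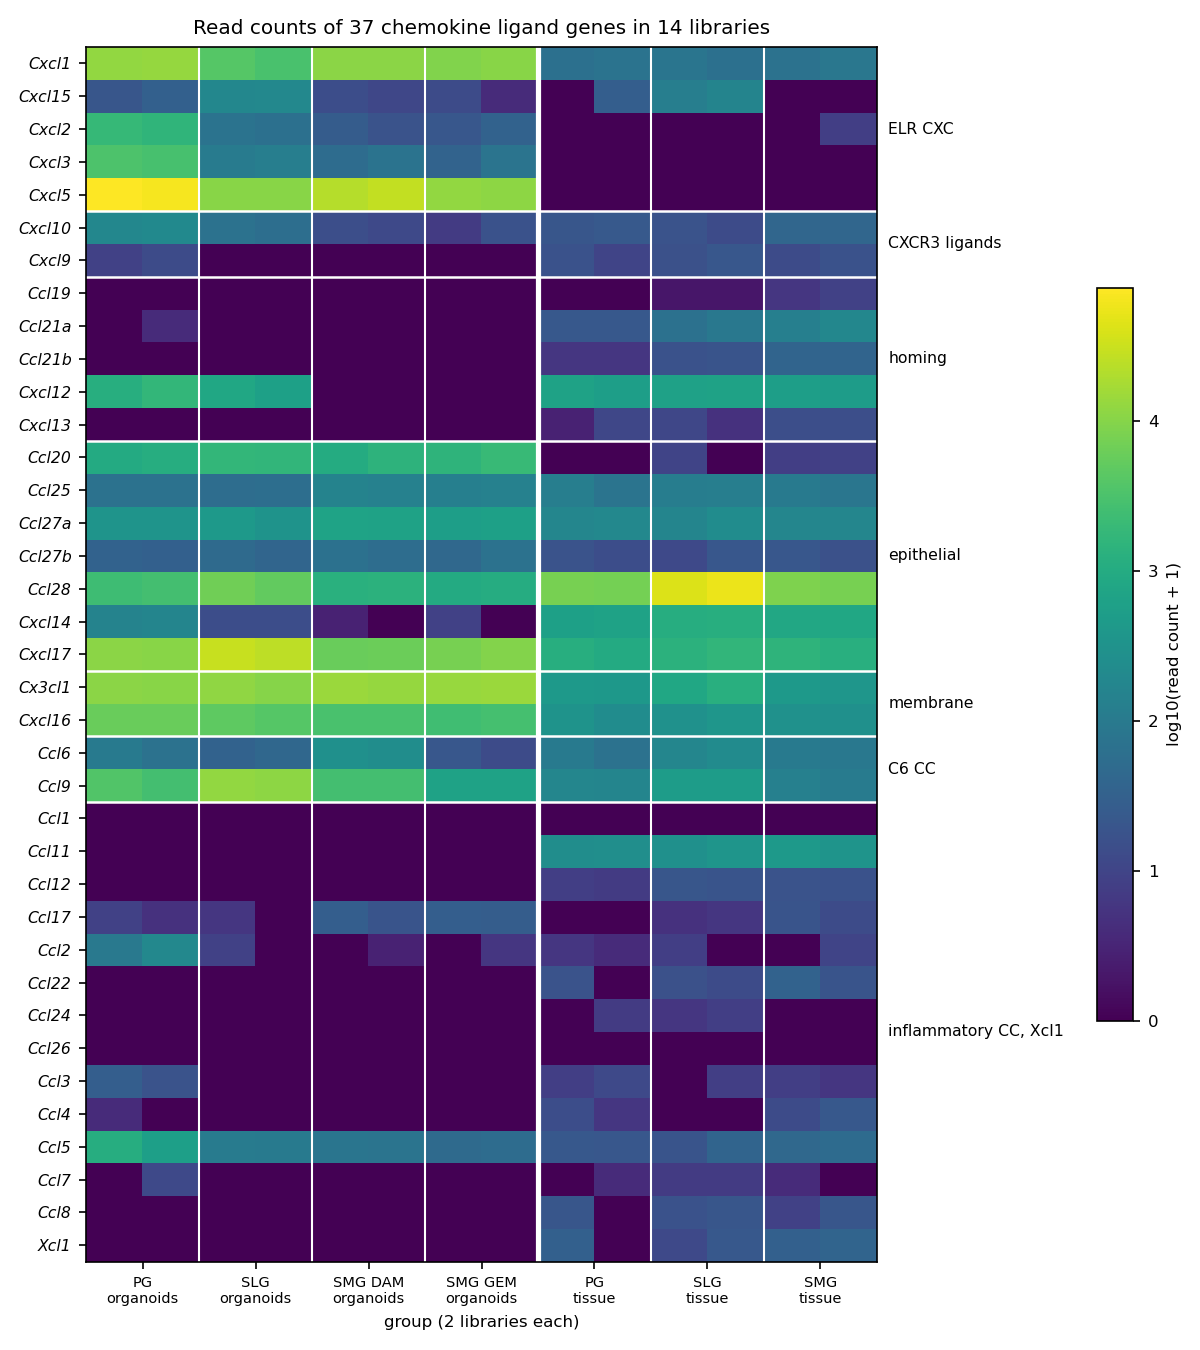
Read counts of the 37 chemokine genes, as log10(read count + 1) from dark (0) to yellow, in 14 libraries of 7 groups, with genes grouped by role. In the top rows Cxcl1, Cxcl2, Cxcl3 and Cxcl5 are brighter in organoids than in tissue of the same gland, and Cxcl15 is brightest in SLG organoids and SLG tissue. Most of the inflammatory CC genes at the bottom are at 0 in organoids.

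The ELR CXC genes lie together on chromosome 5, and each but Cxcl15 was abundant in at least 1 organoid group. Cxcl5, Cxcl3, Cxcl15, Cxcl1 and Cxcl2 fall within 147 kb at chr5:90759298-90905938 (GRCm38.p6). The bases before the start sites of Cxcl1, Cxcl2, Cxcl3 and Cxcl10 are shown. All of these genes were higher in PG than in SLG organoids, and all carry a match to the spellings given below. Ccl6 was also called higher in PG than in SLG organoids, had a window with no match and is not shown. The runs shown thus do not stand for all members higher in PG organoids. Each run is the 250 bases before the RefSeq start site, in the direction of the gene, at chr5:90890995-90891244 (+ strand) for Cxcl1, chr5:90903649-90903898 (+) for Cxcl2, chr5:90785851-90786100 (+) for Cxcl3 and chr5:92348890-92349139 (− strand) for Cxcl10. Capitals mark matches on either strand to GGGNNTTCC or GGGNNNTTCC, spellings of the NF-κB site, where N is any base.
Cxcl1: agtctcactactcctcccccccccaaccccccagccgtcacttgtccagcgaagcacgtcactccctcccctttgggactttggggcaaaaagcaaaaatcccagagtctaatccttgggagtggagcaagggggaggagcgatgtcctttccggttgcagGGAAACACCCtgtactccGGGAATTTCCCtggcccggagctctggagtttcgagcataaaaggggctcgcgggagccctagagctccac
Cxcl2: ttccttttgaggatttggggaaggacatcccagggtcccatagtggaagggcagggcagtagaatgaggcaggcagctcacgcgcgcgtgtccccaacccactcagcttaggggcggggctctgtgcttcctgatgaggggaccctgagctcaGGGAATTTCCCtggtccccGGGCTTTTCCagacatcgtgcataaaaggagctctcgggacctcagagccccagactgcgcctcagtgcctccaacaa
Cxcl3: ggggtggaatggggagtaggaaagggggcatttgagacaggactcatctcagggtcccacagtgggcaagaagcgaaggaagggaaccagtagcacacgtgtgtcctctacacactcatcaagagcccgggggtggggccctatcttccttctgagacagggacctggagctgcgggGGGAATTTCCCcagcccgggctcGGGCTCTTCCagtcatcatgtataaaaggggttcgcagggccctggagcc
Cxcl10: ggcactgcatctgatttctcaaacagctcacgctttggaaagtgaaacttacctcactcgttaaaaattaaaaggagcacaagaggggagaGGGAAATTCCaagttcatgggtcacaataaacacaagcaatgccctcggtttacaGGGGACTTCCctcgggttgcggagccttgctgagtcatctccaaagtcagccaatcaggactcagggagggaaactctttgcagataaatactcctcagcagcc
Cxcl1, Cxcl2 and Cxcl3 carry the same 11-letter run, GGGAATTTCCC, that begins 71, 97 and 73 bases before the start. It reads as a match to the longer spelling on both strands. RefSeq windows of 300 bases (250 before and 50 after the start) were held for 27 members, with Ccl2, Ccl4, Ccl5, Ccl7, Ccl11, Ccl24, Ccl26, Cxcl5, Cxcl16 and Cxcl17 outside the table. GGGNNTTCC was found in 6 of the 27 (22.2%: Ccl9, Ccl19, Ccl20, Ccl25, Cxcl9 and Cxcl10), against 1777 of 27025 genes with a window (6.58%). GGGNNNTTCC, a spelling added after the values were known, was found in 7 (25.9%: Ccl1, Ccl9, Ccl20, Cxcl1, Cxcl2, Cxcl3 and Cxcl10), against 1704 of the 27025 (6.31%). The spellings overlap at the same bases in Ccl9, Ccl20 and Cxcl10. Ccl1 has a match and had no count in any library. A match is a description of the letters only.

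The DAM was set against the GEM in SMG organoids to see which chemokines differed between the differentiation and growth media. By a study legend for stained organoids, the DAM followed the GEM for another 3 days. If this held here too, medium and time in culture cannot be told apart. Ccl6 and Ccl9 rose in the DAM, as did Cxcl5 at the edge of the fold threshold, and no chemokine fell past it. Of the 37 genes 17 were tested and 3 were called, all higher, where 2.96% of the 16260 genes tested were called (1.81% higher). The median log2 fold change of the 17 was 0.13, against 0.007 over all genes tested. Of all genes called 61.2% were higher, and 77.8% with the replicate number as a block.

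Ccl6 and Ccl9 are neighboring mouse CC chemokines with 6 cysteines that act on Ccr1, a receptor of monocytes and neutrophils. Ccl6 had 287 and 254 counts in the DAM, against 20 and 12 in the GEM. It rose 16.1-fold (log2 fold change 4.01 ± 0.35 SE, n = 2 libraries each, edgeR adjusted p = 5.56e-05). Ccl9 had 2661 and 2736 counts in the DAM, against 662 and 644 in the GEM. It rose 3.96-fold (1.99 ± 0.11, adjusted p = 2.66e-06). In both genes the media did not overlap and the paired libraries of each medium lay close together.

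Cxcl5, an ELR chemokine, had 22601 and 27399 counts in the DAM, against 12377 and 11333 in the GEM. The rise of 2.02-fold (1.02 ± 0.12, adjusted p = 0.000513) stood just past the threshold, and it was 0.80 with the replicate number as a block, 0.86 without SMG DAM replicate 2 and 0.91 without SMG GEM replicate 3, all under it. Cxcl17, a mucosal chemokine of airway and gut epithelium, had 6011 and 6220 counts in the DAM, against 7795 and 9515 in the GEM. Its difference of −0.56 ± 0.08 (adjusted p = 0.00103) did not reach the fold threshold. Ccl20, the ligand of Ccr6, had 1031 and 1464 counts in the DAM, against 1543 and 1945 in the GEM (−0.54 ± 0.17, adjusted p = 0.0596). Ccl28 had 1270 and 1363 counts in the DAM, against 954 and 1081 in the GEM (0.32 ± 0.10, adjusted p = 0.0574). Cxcl1 and Cx3cl1 differed by 0.11 ± 0.08 and −0.10 ± 0.08, and neither was called (adjusted p = 0.384 and 0.365). By whole-library CPM, Cxcl1 had means of 167.1 (SD 2.27) in the DAM and 147.2 (SD 3.05) in the GEM.

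**Figure D3:**
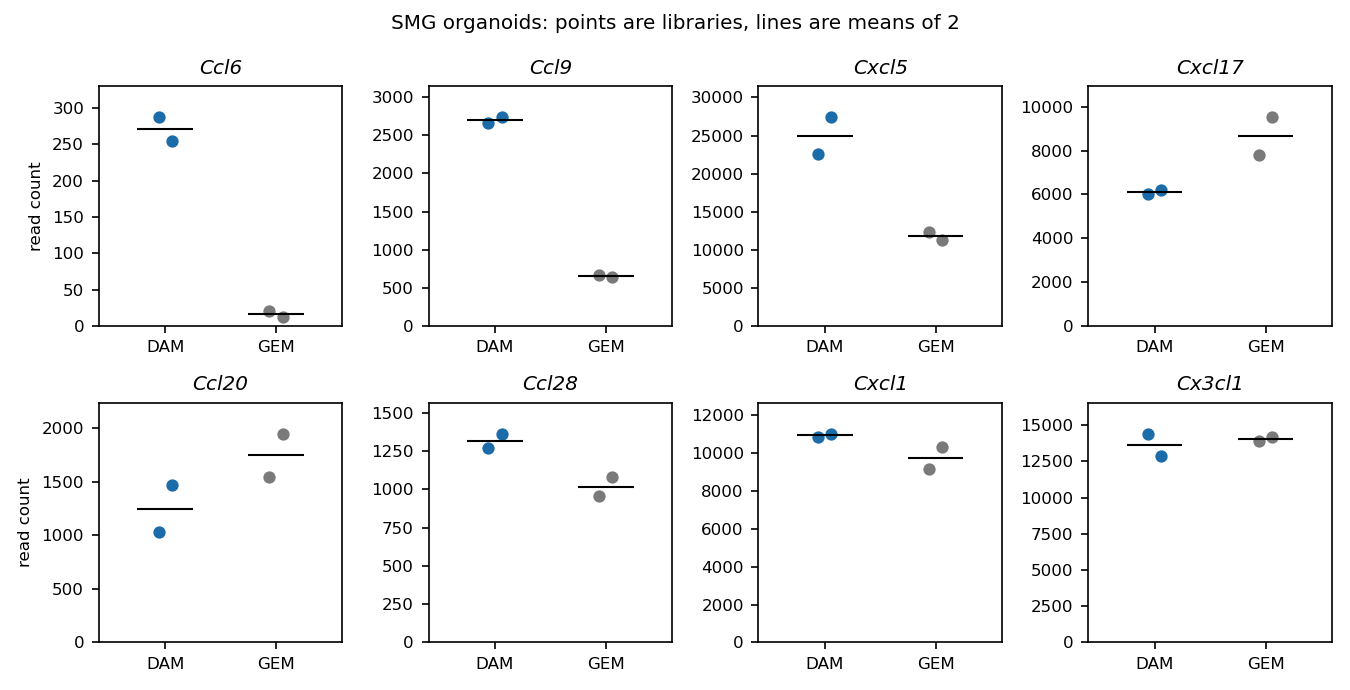
Read counts (axes from 0) of 8 chemokines in SMG organoids in the DAM (blue, left) and in the GEM (grey, right), with 1 point per library and a line at the mean of 2. Ccl6, Ccl9 and Cxcl5 lie higher in the DAM with no overlap, Cxcl17 lies lower, and the points of Cx3cl1 overlap.

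PG organoids were compared with SLG and SMG organoids to find which chemokines marked the culture of each gland. Cxcl2, Cxcl3, Cxcl5, Cxcl10 and Ccl5 were higher in PG organoids than in both others, and Cxcl15, Cxcl17, Ccl9 and Ccl28 were higher in SLG organoids than in both others. PG against SLG organoids called 11 of the 17 tested members, 7 higher and 4 lower, where 9.76% of 16260 genes were called (5.83% higher and 3.93% lower). PG against SMG organoids called 8 of 17, 7 higher and 1 lower, where 14.7% were called (9.16% and 5.55%). SLG against SMG organoids called 10 of 17, 6 higher and 4 lower, where 15.2% were called (8.91% and 6.28%). These 3 comparisons share libraries with each other. The shares of members called were well over these backgrounds.

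Cxcl2 and Cxcl3, ELR ligands of Cxcr2, stood apart in PG organoids. Cxcl3 had 3362 and 2907 counts in PG organoids, against 105 and 121 in SLG organoids and 52 and 72 in SMG organoids in the DAM. It was 30.3-fold higher than in SLG (4.92 ± 0.25, adjusted p = 8.97e-07) and 53.3-fold higher than in SMG organoids (5.74 ± 0.27, adjusted p = 3.13e-07). Cxcl2 had 1878 and 1556 counts in PG organoids, against 73 and 62 in SLG and 26 and 17 in SMG organoids. It was 27.9-fold and 83.8-fold higher (4.80 ± 0.20 and 6.39 ± 0.23, adjusted p = 3.14e-08 and 6.21e-09). For both genes the PG libraries lay far above every other library, and SLG organoids stood between PG and SMG organoids.

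Cxcl5 had 77627 and 67464 counts in PG organoids, against 10265 and 10705 in SLG and 22601 and 27399 in SMG organoids in the DAM. PG was 7.56-fold above SLG (2.92 ± 0.13) and 3.06-fold above SMG organoids (1.62 ± 0.12), and SLG was lower than SMG organoids (−1.30 ± 0.12, adjusted p = 1.04e-05), so the 3 glands were ordered PG, SMG and SLG. Cxcl1, also known as KC, had 12284 and 13128 counts in PG organoids, against 3913 and 3045 in SLG and 10855 and 11013 in SMG organoids. SLG organoids stood below both others (2.01 ± 0.09 for PG over SLG and −1.71 ± 0.09 for SLG over SMG), and PG over SMG was 0.30 ± 0.08, past the adjusted p (0.0133) but not the fold. Cxcl15, known as lungkine from mouse lung epithelium, went the other way. It had 19 and 30 counts in PG organoids and 181 and 189 in SLG organoids, against 13 and 10 in SMG organoids. SLG organoids were 15.4-fold above SMG organoids (3.94 ± 0.48, adjusted p = 5.06e-05), and PG organoids were below SLG organoids (−2.77 ± 0.44, adjusted p = 0.000558).

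**Figure D4:**
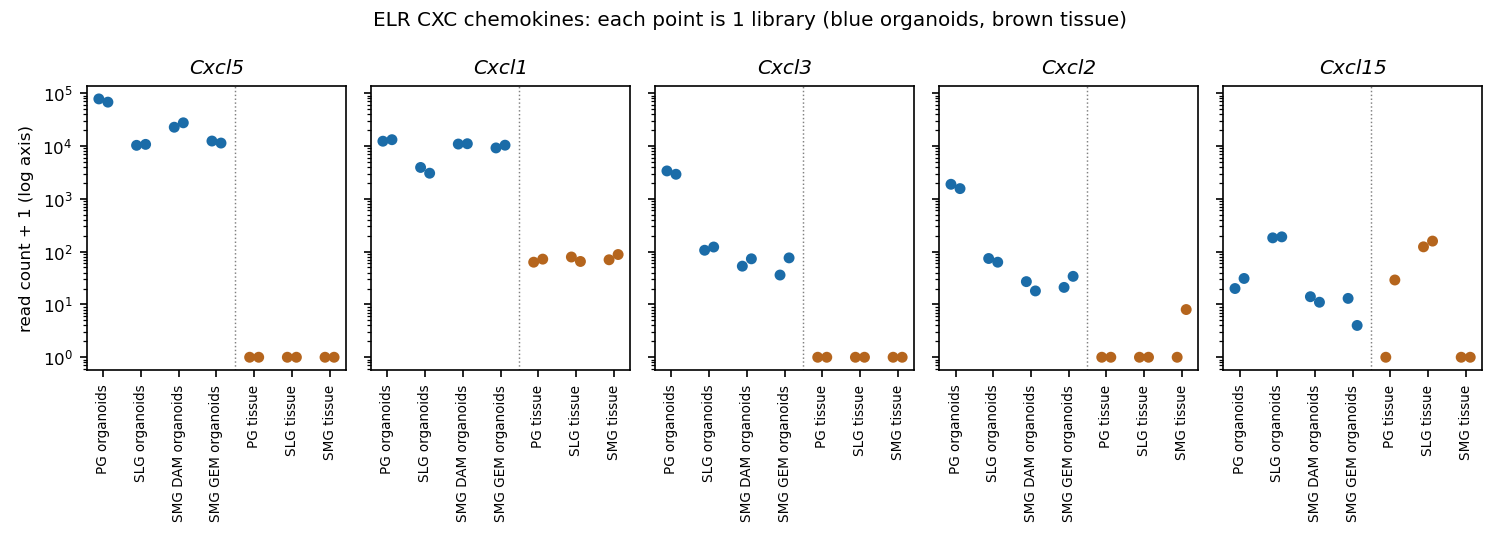
Read counts of the 5 ELR CXC genes in each library (read count + 1, log axis), with organoids in blue and tissue in brown and 2 points per group; PG and SLG organoids were in the DAM. Cxcl5 reaches 77627 counts in PG organoids and is at 0 in all 6 tissue libraries, and Cxcl15 is highest in SLG organoids and SLG tissue.

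Of the Cxcr3 ligands, which interferon induces and which draw activated T cells, only Cxcl10 was tested. It had 185 and 207 counts in PG organoids and 70 and 57 in SLG organoids, against 14 and 11 in SMG organoids in the DAM. Each gland differed from the next, by 1.77 ± 0.33 for PG over SLG (adjusted p = 0.00174), 2.27 ± 0.40 for SLG over SMG (adjusted p = 0.000711) and 4.04 ± 0.39 for PG over SMG (adjusted p = 1.01e-05). Ccl5, which draws T cells and monocytes, had 1098 and 577 counts in PG organoids, against 106 and 98 in SLG and 78 and 75 in SMG organoids. It was 8.93-fold and 11.5-fold higher in PG organoids (3.16 ± 0.26 and 3.52 ± 0.27), while the PG libraries themselves differed more than those of the other glands. Ccl2, which draws monocytes through Ccr2, had 92 and 193 counts in PG organoids, against 8 and 0 in SLG and 0 and 2 in SMG organoids. It was not tested because of its zeros. The expression filter of edgeR, used in places instead of the zero rule, let Ccl2 in only through PG organoids, where it was high. No test of Ccl2 under that filter is therefore given.

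Cxcl12, the stromal ligand of Cxcr4, was present in PG and SLG organoids and at 0 in all 4 SMG organoid libraries. It had 1184 and 1703 counts in PG and 834 and 612 in SLG organoids. PG organoids were at least 512-fold and SLG organoids at least 230-fold above SMG organoids in the DAM. Of the markers of pericytes and smooth muscle, which myoepithelial cells share in part, Acta2, Myh11 and Rgs5 had the same pattern and Pdgfrb did not. Pdgfrb, a pericyte marker, had 7 and 15 counts in PG and 9 and 9 in SLG organoids, against 10 and 5 in SMG organoids in the DAM. Acta2, smooth muscle actin, had 9567 and 11683 counts in PG and 4566 and 3653 in SLG organoids, against 13 and 8 in SMG organoids in the DAM. The 4 marker genes summed to 185 to 243 CPM in PG, 74.2 to 78.5 CPM in SLG and 0.781 to 0.915 CPM in SMG organoids in the DAM, against 0.318 to 0.427 CPM in the GEM. Most of the sum in PG and SLG organoids was Acta2. The part of such cells in the Cxcl12 level was not tested. Ackr3, which binds and removes Cxcl12, had 455 and 437 counts in PG and 15 and 16 in SLG organoids, against 0 and 2 in SMG organoids in the DAM. In bulk RNA, fewer cells of a type and less RNA per cell cannot be told apart.

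Among epithelial and mucosal chemokines, Cxcl17 and Ccl28 were highest in SLG organoids. Cxcl17 had 10753 and 10508 counts in PG and 29594 and 24849 in SLG organoids, against 6011 and 6220 in SMG organoids in the DAM. SLG organoids were 4.27-fold above SMG organoids (2.10 ± 0.08, adjusted p = 8.82e-09), PG organoids were below SLG organoids (−1.22 ± 0.08, adjusted p = 6.36e-07), and PG over SMG organoids was 0.88 ± 0.08. Ccl28 had 2381 and 2646 counts in PG and 6717 and 5173 in SLG organoids, against 1270 and 1363 in SMG organoids. SLG was 4.32-fold above SMG (2.11 ± 0.10, adjusted p = 4.89e-08). The other 2 comparisons of Ccl28 stood near the fold threshold (−1.10 ± 0.10 for PG over SLG and 1.02 ± 0.10 for PG over SMG). PG over SLG was −0.95 without PG replicate 1 and −0.98 without SLG replicate 1. PG over SMG was 0.88 without PG replicate 3, 0.96 without SMG DAM replicate 1 and 0.90 with the replicate block.

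Ccl25, a ligand of Ccr9 known from gut and thymus, had 70 and 70 counts in PG and 56 and 58 in SLG organoids, against 150 and 141 in SMG organoids in the DAM. SLG was lower than SMG (−1.40 ± 0.25, adjusted p = 0.000741), and PG over SMG was −0.97 ± 0.24. Ccl20 differed little among glands, with 974 and 1124 counts in PG and 1719 and 1630 in SLG, against 1031 and 1464 in SMG organoids. It passed the fold threshold in none of the 3 comparisons. Ccl27a, a ligand of Ccr10 in skin, had 336 and 342 counts in PG and 442 and 324 in SLG, against 698 and 642 in SMG organoids (−0.90 ± 0.14 and −0.87 ± 0.14, under the fold threshold). Its near-identical copy Ccl27b had 31 to 69 counts in the 8 organoid libraries, and how reads were split between the copies is uncertain. Cxcl14, made by skin and other epithelia, had 151 and 170 counts in PG and 13 and 13 in SLG organoids, against 2 and 0 in SMG organoids in the DAM.

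Of the membrane-anchored chemokines, Cx3cl1 passed the fold threshold in no comparison of organoids and Cxcl16 in 1. Cx3cl1, or fractalkine, had 10955 and 10428 counts in PG and 12200 and 9863 in SLG, against 14400 and 12869 in SMG organoids in the DAM. Cxcl16, the ligand of Cxcr6, had 6034 and 5915 counts in PG and 4712 and 3911 in SLG, against 3015 and 3082 in SMG organoids. PG over SMG was 1.05 ± 0.07 (adjusted p = 8.44e-07), and 0.99 with the replicate block. The C6 pair split. Ccl9 had 3610 and 2667 counts in PG and 12361 and 11583 in SLG, against 2661 and 2736 in SMG organoids, so SLG stood above both others (2.10 ± 0.11 over SMG, and −1.80 ± 0.10 for PG over SLG). Ccl6 had 99 and 69 counts in PG and 34 and 42 in SLG, against 287 and 254 in SMG organoids in the DAM. It was lower in PG (−1.61 ± 0.30, adjusted p = 0.00111) and in SLG (−2.87 ± 0.32, adjusted p = 2.54e-05) than in SMG organoids. Its call for PG over SLG (1.26 ± 0.32, adjusted p = 0.0108) was lost without PG replicate 1 (adjusted p = 0.0721) or SLG replicate 1 (adjusted p = 0.114). No called direction between organoid groups changed with whole-library totals.

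Organoids in the DAM were set against tissue of the same gland to see what culture kept or altered. Cxcl1, Cx3cl1, Ccl9 and Cxcl16 were higher in organoids of all 3 glands, and Ccl28 was lower in all 3, under TMM and whole-library scaling alike. Only 12 members had counts in all 12 libraries of the model. PG organoids against PG tissue called 10 of these, 7 higher and 3 lower, where 47.2% of 14459 genes were called (25.1% higher and 22.1% lower). SLG organoids against SLG tissue called 9, 6 higher and 3 lower, where 38.6% were called (20.6% and 18.1%). SMG organoids against SMG tissue called 8, 4 higher and 4 lower, where 46.1% were called (22.9% and 23.2%). With whole-library totals the share of higher genes among all called moved to 93.7% in PG, 89.3% in SLG and 92.1% in SMG, against 53.2%, 53.3% and 49.6% with TMM. The members called were then 9 higher and 1 lower in PG, 8 higher and 2 lower in SLG and 8 higher and 2 lower in SMG. Under the expression filter, which tested more members, they were 12 higher and 14 lower in PG, 10 higher and 14 lower in SLG and 7 higher and 17 lower in SMG. Some of the added members passed that filter only through the groups where they were high, so these counts are no separate support. Of 19234 genes tested under that filter, 9796 were called in PG (51% of them higher), 8444 in SLG (46.6%) and 9623 in SMG (46.6%).

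Cxcl5 was at 0 in every tissue library. With tissue set at 3 counts a library, it was at least 7280-fold higher in PG, 1690-fold in SLG and 1840-fold in SMG organoids (29200-fold, 3680-fold and 7680-fold by whole-library totals). Cxcl3 was at least 315-fold higher in PG, 18.3-fold in SLG and 4.55-fold in SMG organoids than in tissue at 0. Cxcl2 was at 0 in PG and SLG tissue, and at 0 and 7 counts in SMG tissue, and was at least 172-fold higher in PG and 10.8-fold higher in SLG organoids. In SMG, Cxcl2 had 26 and 17 counts in organoids, a level that the expression filter did not call (0.51 ± 0.77, adjusted p = 0.568). Cxcl1 had 12284 and 13128 counts in PG, 3913 and 3045 in SLG and 10855 and 11013 in SMG organoids, against 62 and 71, 78 and 64, and 69 and 87 in tissue of PG, SLG and SMG. It rose by 5.85 ± 0.16, 4.57 ± 0.16 and 4.95 ± 0.16 on the log2 scale (adjusted p = 5.79e-15, 1.36e-13 and 2.88e-14), the steepest rise of the 12 in each gland.

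Cx3cl1 had 9863 to 14400 counts in the organoids in the DAM, against 419 and 405 in PG, 814 and 1203 in SLG and 427 and 363 in SMG tissue. It rose by 2.97 ± 0.09, 2.43 ± 0.09 and 2.94 ± 0.09 in PG, SLG and SMG. Cxcl16 had 240 to 367 counts in tissue and rose by 2.68 ± 0.11, 2.67 ± 0.10 and 1.21 ± 0.10. Ccl9 had 107 to 508 counts in tissue and rose by 2.47 ± 0.14, 3.52 ± 0.13 and 2.31 ± 0.14. Both membrane-anchored genes thus rose in each gland. Ccl20 had 974 to 1719 counts in organoids in the DAM, against 0 and 0 in PG tissue, 9 and 0 in SLG tissue and 7 and 8 in SMG tissue, and it was at least 106-fold higher in PG organoids. Ccl20 passed the expression filter only through the organoids, where it was high, so no test under that filter is given.

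Ccl28 had 2381 and 2646 counts in PG organoids, against 7611 and 7463 in PG tissue. It had 6717 and 5173 in SLG organoids, against 43218 and 55526 in SLG tissue, and 1270 and 1363 in SMG organoids in the DAM, against 8908 and 7640 in SMG tissue. Its log2 fold changes were −3.31 ± 0.09, −4.09 ± 0.09 and −4.83 ± 0.10 in PG, SLG and SMG (adjusted p = 5.58e-15, 1.06e-15 and 1.64e-16). With whole-library totals the falls were smaller and still called, at −1.31, −2.98 and −2.76. Ccl28 was the most abundant chemokine of each tissue, and SLG stood above the other glands in tissue and organoids alike. Ccl25 was also lower with TMM, by −2.22 ± 0.27, −2.10 ± 0.27 and −1.52 ± 0.25, and with whole-library totals its values were −0.22 in PG, −0.99 in SLG and 0.53 in SMG, none of them called. Cxcl14 had 151 and 170 counts in PG and 13 and 13 in SLG organoids and 2 and 0 in SMG organoids in the DAM, against 591 and 659, 1116 and 1168, and 872 and 824 in tissue of PG, SLG and SMG. Under the expression filter it was lower by −3.63 ± 0.17 in PG and by −7.49 in SLG organoids. No SE is given for SLG and no fold for SMG, where the organoids held few reads or none. Its whole-library means were also lower, at 2.77, 0.207 and 0.0152 CPM in organoids, against 8.92, 17.3 and 14.04 CPM in tissue.

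Cxcl17, Cxcl10, Ccl5 and Ccl6 did not take the same course in each gland. Cxcl17 rose in PG (1.58 ± 0.08) and SLG organoids (3.14 ± 0.08), and was 0.02 ± 0.08 in SMG, where whole-library totals gave 2.08. Cxcl10 was higher in PG (1.53 ± 0.32) and SLG organoids (1.07 ± 0.36) than in tissue, and lower in SMG organoids (−3.86 ± 0.37, adjusted p = 5.79e-08). Its SLG call was lost without SLG organoid replicate 1 (0.98) or SLG tissue replicate 2 (0.68). Ccl5 rose in PG organoids (3.61 ± 0.33), was 0.87 ± 0.34 in SLG (1.97 and called with whole-library totals) and was lower in SMG organoids (−1.46 ± 0.32, but 0.60 with whole-library totals). Ccl6 was lower in PG (−1.74 ± 0.26, but 0.25 with whole-library totals) and SLG organoids (−3.41 ± 0.27), and was −0.67 ± 0.24 in SMG, where whole-library totals gave 1.39. Ccl27a and Ccl27b were called in no gland, with differences from −0.83 to 0.45. With whole-library totals 5 of these 6 differences were called higher (Ccl27a by 1.17 in PG and 1.84 in SMG, and Ccl27b by 1.36 in PG, 1.54 in SLG and 1.68 in SMG), and Ccl27a in SLG was 0.98.

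**Figure D5:**
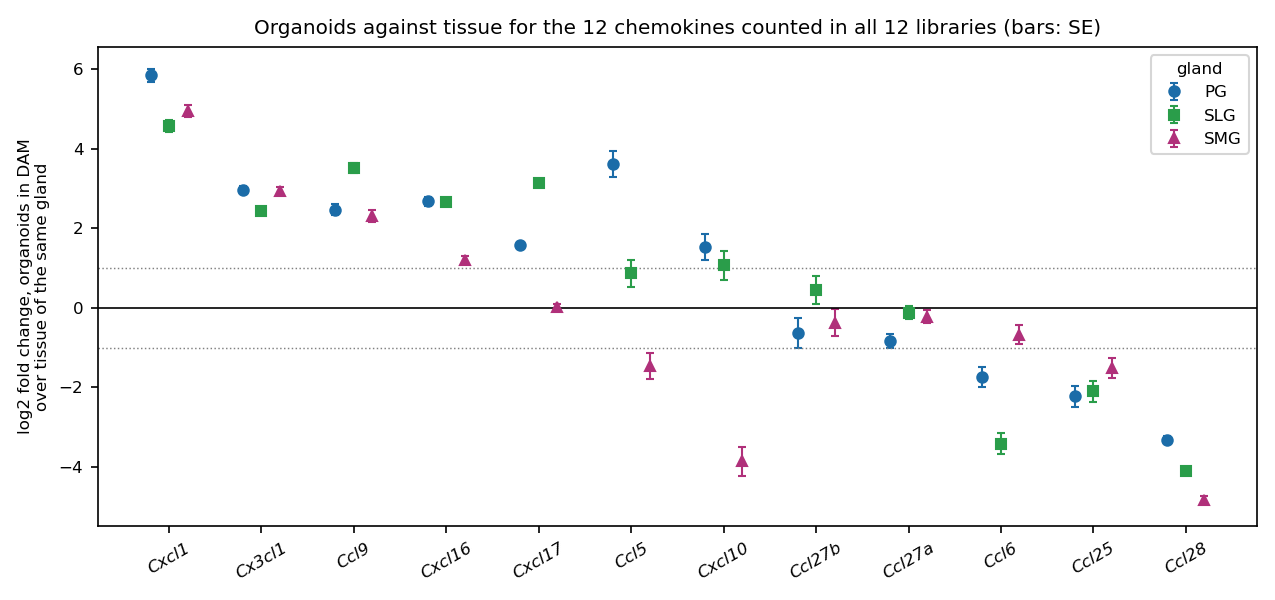
Log2 fold change of organoids in the DAM over tissue of the same gland (TMM scaling; bars are SE, 2 libraries a group) for the 12 chemokines with counts in all 12 libraries, by gland. Cxcl1 lies highest and Ccl28 lowest in each gland, and Ccl5 and Cxcl10 lie above 0 in PG and below 0 in SMG; with whole-library totals Ccl27a in all 3 glands, Ccl27b and Ccl6 in PG and SMG, and Ccl5 and Ccl25 in SMG move from below to above 0.

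Ccl11, Ccl12, Ccl21a, Ccl21b and Cxcl13 were near or at 0 in organoids. Ccl11, or eotaxin, had no count in the organoid libraries, against 251 and 256 counts in PG, 290 and 353 in SLG and 436 and 342 in SMG tissue, and was at least 280-fold, 219-fold and 583-fold lower (70-fold, 101-fold and 140-fold by whole-library totals). Ccl21a, a Ccr7 ligand of lymphatic vessels, had 0 or 3 counts in the organoid libraries, against 21 and 21 in PG, 67 and 91 in SLG and 126 and 179 in SMG tissue. Ccl21b, its near-identical copy, had 0 in organoids and 5 to 37 in tissue, and reads may be split between the copies. Cxcl13, the B-cell chemokine, had 2 to 14 counts in tissue and Ccl12 had 6 to 19, and both were at 0 in organoids. Cxcl12 was an exception. It had 503 to 656 counts in the 6 tissue libraries, and under the expression filter it differed by −0.40 ± 0.18 in PG and −0.89 ± 0.19 in SLG organoids, neither called. By whole-library CPM it turned round, with means of 25.01 CPM in PG and 11.4 CPM in SLG organoids, against 8.54 CPM in PG and 9.71 CPM in SLG tissue. SMG organoids in the DAM were at least 800-fold lower than SMG tissue (192-fold by whole-library totals).

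Ccl2 had 92 and 193 counts in PG organoids, against 5 and 3 in PG tissue, and was not tested under the zero rule. The 12 members under 1 CPM in every group and not called under the zero rule, which left most of them untested, were Ccl1, Ccl3, Ccl4, Ccl7, Ccl8, Ccl17, Ccl19, Ccl22, Ccl24, Ccl26, Cxcl9 and Xcl1. Their counts ran between 0 and 36 over all libraries. Under the expression filter, which some passed only through the groups where they were high, 7 of them were called in at least 1 comparison. These were Ccl3, Ccl4, Ccl8, Ccl17, Ccl22, Cxcl9 and Xcl1. The RefSeq spans of Ccl3 and Ccl4 overlap on chromosome 11, so their few reads may be shared. The use of strand in counting was not stated in the sources at hand.

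Tissues of the 3 glands were compared to see which chemokines the glands differ in before culture. Ccl28 was highest in SLG tissue, and Ccl21a and Ccl21b were highest in SMG tissue. In each comparison 20 members were tested. PG against SLG tissue called 3, 1 higher and 2 lower, where 28.3% of 16293 genes were called (15.7% higher and 12.6% lower), so the members' share lay under the background. Ccl28 was lower in PG (−1.92 ± 0.08, adjusted p = 7.05e-10), and so was Ccl21a (−1.11 ± 0.35, adjusted p = 0.0143). Cxcl10 had 19 and 22 counts in PG, against 17 and 12 in SLG tissue, and its call of 1.26 ± 0.46 (adjusted p = 0.0305) was lost with DESeq2, with whole-library totals (0.41) and without PG tissue replicate 1, PG tissue replicate 2 or SLG tissue replicate 2. Without PG tissue replicate 1 or SLG tissue replicate 2, 1 member was called. With whole-library totals 7 members were called, and the share of higher genes among all called was 11.2%, against 55.4% with TMM.

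PG against SMG tissue called 5 of 20, all lower, where 13.5% were called (6.71% higher and 6.78% lower). Ccl21a (−3.21 ± 0.34, adjusted p = 9.59e-06) and Ccl21b (−3.17 ± 0.47, adjusted p = 0.000166) fell most. Ccl5 had 21 and 20 counts in PG, against 43 and 50 in SMG tissue (−1.52 ± 0.40, adjusted p = 0.00874). Ccl12 (−1.66 ± 0.48, adjusted p = 0.0146) and Cxcl10 (−1.31 ± 0.42, adjusted p = 0.0227) rested on few reads, and with DESeq2 neither was called. Without PG tissue replicate 1, or without SMG tissue replicate 2, 3 members were called. The share of higher genes among all called was 60.2% with whole-library totals, against 49.7% with TMM.

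SLG against SMG tissue called 9 of 20, 1 higher and 8 lower, where 20.3% were called (8.38% higher and 11.9% lower). Ccl28 rose (1.46 ± 0.07, adjusted p = 1.28e-08). Cxcl10 (−2.57 ± 0.43), Ccl21b (−2.21 ± 0.40) and Ccl21a (−2.10 ± 0.30) were lower in SLG under both scalings. Ccl5, Ccl11, Cxcl1, Cxcl13 and Ccl27b were also lower, and none of these 5 was called with whole-library totals (−0.92, −0.41, −0.27, −1.11 and −0.32). Ccl27b and Cxcl13 were also not called with DESeq2. Without SMG tissue replicate 2, 6 members were called. With whole-library totals 94.9% of called genes were higher, and 54.7% with no filter, against 41.3% with TMM and the zero rule. Cxcl15 had 122 and 157 counts in SLG, against 0 and 0 in SMG tissue, at least 21.3-fold higher, and 0 and 28 in PG tissue, so SLG was the gland with the highest Cxcl15 in tissue and in organoids. In the same comparison 6 of 6 fibroblast markers were lower in SLG tissue (median −1.43) and 4 of the 7 leukocyte markers tested were lower (median −1.06), with TMM. Their part in the lower chemokines was not tested.

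The organoid-against-tissue difference itself differed among glands for 10 of the 12 tested members by an edgeR F test on the interaction, where 74.3% of 14459 genes passed, so the members' share was close to the background. Cxcl17 (adjusted p = 3.18e-12), Ccl28 (5.74e-08), Cxcl10 (1.27e-07), Cxcl16 (2.2e-07) and Ccl5 (2.98e-07) had the smallest adjusted p-values. Ccl25 (adjusted p = 0.178, but 0.00402 with whole-library totals) and Ccl27b (0.14) did not pass.

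Few receptors for these ligands were counted in every organoid library. Of 23 receptors, 9 were at 0 in all 8 organoid libraries, and 4 were above 3 counts in each: Ccrl2, Ackr4, Cxcr4 and Ccr9. The 23 summed to 28.2 to 46.6 CPM of the whole library in organoids, against 9.97 to 18.1 CPM in tissue. Ccrl2 made up most of this sum in each organoid library and a smaller part in tissue. Whole-library CPM also place the median gene higher in organoids than in tissue. The sums thus do not show that receptors for these ligands were higher in organoids. Cxcr2, the receptor of the ELR chemokines, had 8 to 29 counts in PG and SMG organoids, and 0 in SLG organoids and in all tissue. Ccrl2, which binds chemerin, had 1038 and 891 counts in PG and 1343 and 1130 in SLG, against 2164 and 2311 in SMG organoids in the DAM, and was lower in PG than in SMG (−1.14 ± 0.09). Cxcr4, the Cxcl12 receptor, had 53 and 41 counts in PG, against 277 and 214 in SLG organoids, and was lower in PG (−2.24 ± 0.27, adjusted p = 8.63e-05). Between PG organoids and tissue, 1 of 3 tested receptors was higher (Ackr4, a scavenger of Ccl21 and Ccl25, by 4.15 ± 0.39) and 1 lower (Cxcr4, with 53 and 41 counts in PG organoids, against 46 and 56 in PG tissue, a call that rests on the TMM scaling). In SLG 2 of 3 were higher and in SMG 1 of 3, where 25.1%, 20.6% and 22.9% of all genes tested were higher in PG, SLG and SMG organoids.

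Of the 5 genes that process or present chemokines, 4 were higher and 1 lower in organoids of each gland, where 47.2%, 38.6% and 46.1% of all genes tested were called in PG, SLG and SMG. Sdc1, a syndecan that holds chemokines on its sugar chains, rose by 5.33 ± 0.09 in PG, 2.91 ± 0.08 in SLG and 5.03 ± 0.09 in SMG organoids. Adam10 and Adam17, which shed Cx3cl1 and Cxcl16 from the membrane, rose by 1.504 to 2.61. Dpp4, a protease that trims Cxcl10 and Cxcl12, was lower, at −4.86 ± 0.09, −5.99 ± 0.10 and −7.502 ± 0.11 in PG, SLG and SMG.

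Of 19 inducers and feedback genes of NF-κB, 14 were tested against tissue. In PG 9 were higher and 0 lower, in SLG 5 higher and 1 lower (Tlr2), and in SMG 5 higher and 0 lower, beside the 25.1%, 20.6% and 22.9% of all genes that were higher. Icam1, an adhesion molecule that NF-κB induces, rose by 4.77 ± 0.17, 3.72 ± 0.16 and 4.25 ± 0.18 in PG, SLG and SMG. Tnfaip3, an inhibitor in the same pathway, rose by 4.13 ± 0.20, 2.43 ± 0.16 and 3.10 ± 0.20. Tnf had 816 to 1517 counts in the organoid libraries and 0 to 23 in tissue. Il1a had 6068 and 4525 counts in PG and 95 and 93 in SLG, against 3347 and 2855 in SMG organoids in the DAM. Their part in the chemokine levels was not tested. In the DAM against the GEM, 1 of 16 of these genes was called, where 2.96% of all genes were. It was Tlr2, a Toll-like receptor, which rose by 1.2 ± 0.13.

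Ppbp and Pf4, chemokines of platelets whose symbols fall outside the naming rule, were also counted. Ppbp, an ELR chemokine, had 36417 and 39237 counts in PG and 473 and 646 in SLG, against 8333 and 6709 in SMG organoids in the DAM, 2781 and 2342 in the GEM and 0 to 6 in tissue. It was higher in PG than in SLG (6.21 ± 0.28) and SMG organoids (2.42 ± 0.23), and in the DAM than in the GEM (1.49 ± 0.22, adjusted p = 0.00833), the same order as Cxcl5.

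Markers were counted beside these results. All 6 epithelial markers were above 3 counts in each of the 14 libraries. Of 14 leukocyte markers, 5 were at 0 in all organoid libraries, among them Ptprc (CD45 of all leukocytes), Adgre1 and Itgax. Their sum was 46.1 to 50.3 CPM in PG organoids, 2.38 to 2.84 CPM in SLG and 12.6 to 14.8 CPM in SMG organoids in the DAM, against 12.1 to 12.9 CPM in the GEM and 15.5 to 23.8 CPM in tissue. In PG organoids S100a8, a neutrophil protein that stressed epithelium also makes, had 1977 and 2092 counts, and Itgam had 648 and 309. Fibroblast markers Col3a1 and Lum were at 0 in all organoid libraries, and the 6 of that list summed to 0.823 to 1.74 CPM in organoids, against 112 to 172 CPM in tissue. Of 7 endothelial markers, Kdr was at 0 in all organoid libraries, and their sum of 128 to 131 CPM in PG, 98.2 to 104 CPM in SLG and 3.98 to 4.27 CPM in SMG organoids in the DAM was mostly Pdpn, which basal epithelium also expresses. S100a8 made up most of the PG sum. S100a8 and Itgam were thus highest in the organoids with the highest Cxcl5, Cxcl2, Cxcl3 and Ccl5, while Ptprc was at 0 there. Other markers of the list did not follow. Cd68 had 358 and 175 counts in PG and 119 and 69 in SLG organoids, against 502 and 421 in SMG organoids in the DAM. Ly6g, a neutrophil marker, had 0 and 8 counts in PG organoids. The part of leukocytes in these levels was not tested.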

How the data were processed

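RNA-seq of 14 libraries (7 groups of 2) was used as deposited. The read counts per gene were made by the authors, whose processing notes name HISAT2, StringTie, DESeq2 and the build GRCm38, with no versions. TPM were also deposited by the authors and were used only for shares within a library, and 14 FPKM columns were not used. Columns numbered 3 match no title by number. Their counts were placed by group name, and 2 TPM columns were not used.

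Counts were fitted with edgeR 4.0.16 (R 4.3.3; quasi-likelihood, TMM, robust) in 3 models, for organoids (8 libraries), tissue (6 libraries) and organoids in the DAM with tissue (12 libraries). Benjamini-Hochberg adjustment ran over all genes tested. SE is the log2 fold change over the square root of F. Thresholds for a call were 0.05 on the adjusted p and 1 on the absolute log2 fold change. The fit was tested on simulated data. The floor for bounds was 3 counts per library. The expression filter named in places is filterByExpr of edgeR. Python 3.11.15 with pandas 2.3.3 and matplotlib 3.10.9 drew the plots and tables.

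Genes named with values had a group mean of at least 1 CPM or were called (25 members), and the other 12 are given by range. The members and lists were chosen with earlier results of these data known. Alternatives were DESeq2 1.42.0, RLE factors, whole-library totals, other filters, only the compared groups, the replicate block and leaving out each library. With 2 libraries a group, p-values measure only the spread between these samples.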

Additional observations from a re-analysis of the deposited data

Results flagged for a closer look

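The difference between organoids in the DAM and tissue itself differed among the 3 glands for 10 of 12 tested members (edgeR F test of the interaction), where 74.3% of all genes tested passed. Cxcl17 had an adjusted p of 3.18e-12, Ccl28 of 5.74e-08, Cxcl10 of 1.27e-07, Cxcl16 of 2.2e-07 and Ccl5 of 2.98e-07. Ccl6 had an adjusted p of 1.76e-05, Ccl9 of 3.32e-05, Cxcl1 of 0.000781, Cx3cl1 of 0.000998 and Ccl27a of 0.027 in the same edgeR test. Ccl9 did not pass with whole-library totals (adjusted p = 0.379), and Ccl27a did not pass with the replicate block (adjusted p = 0.0769) or with no filter (adjusted p = 0.0701). With TMM, Cxcl17 and Cxcl10 stood apart in SMG, where Cxcl17 did not differ past the threshold and Cxcl10 was lower in organoids than in tissue. With whole-library totals Cxcl17 was 2.08 in SMG and was called higher. Ccl5 was also lower in SMG organoids with TMM (−1.46, but 0.60 with whole-library totals), against 3.61 in PG and 0.87 in SLG.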

How the results depend on the processing

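Of the log2 fold changes of named members, 36 turned direction under at least 1 alternative (46 values, counting each alternative), of which 3 had been called (Ccl6 in PG, Ccl25 and Ccl5 in SMG organoids over tissue). With whole-library totals these values turned. For PG over SLG tissue the values were Ccl11 −0.42, Ccl25 −0.35, Ccl27a −0.23, Ccl27b −0.11, Ccl5 −0.48, Cxcl1 −0.18, Cxcl12 −0.18, Cxcl13 −0.31, Cxcl16 −0.31 and Cxcl17 −0.57. For SLG over SMG tissue the values were Ccl12 0.03, Ccl25 0.23, Ccl27a 0.10, Ccl6 0.92, Cxcl12 0.14, Cxcl14 0.30, Cxcl16 0.05 and Cxcl17 0.04. For PG organoids over tissue the values were Ccl27a 1.17, Ccl27b 1.36 and Ccl6 0.25. For SMG organoids over tissue the values were Ccl25 0.53, Ccl27a 1.84, Ccl27b 1.68, Ccl5 0.60 and Ccl6 1.39. For SLG organoids over tissue the values were Ccl27a 0.98. With DESeq2 and with RLE factors Cxcl17 was −0.02 in SMG organoids over tissue. When each library was left out in turn, the signs of these uncalled values changed. For PG over SLG tissue, Cxcl14 ran from −0.24 to 0.06 and Cxcl13 ran from −1.05 to 1.5. For SMG organoids over tissue, Cxcl17 ran from −0.01 to 0.08. For the DAM over the GEM, Ccl27b ran from −0.19 to 0.40, Cxcl10 ran from −0.36 to 0.94, Cxcl3 ran from −0.29 to 0.72 and Cxcl15 ran from −0.17 to 1.88. For PG over SMG organoids, Ccl20 ran from −0.40 to 0.11. For PG over SLG organoids, Ccl27a ran from −0.13 to 0.12. For PG over SMG tissue, Ccl25 ran from −0.58 to 0.03.

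With whole-library totals 7 members were called between PG and SLG tissue (3 with TMM), and with DESeq2 3 were called between PG and SMG tissue (5 with edgeR). The expression filter tested more members and called 26 in PG, 24 in SLG and 24 in SMG organoids over tissue, and 18 in the interaction. Some of the added members passed it only through the groups where they were high. No filter gave 25, 24 and 25, and 16. Over all genes the expression filter called 9796 in PG, 8444 in SLG and 9623 in SMG, of 19234 tested. With no filter these were 10031, 8447 and 9920 of 27235. For the interaction, no count over all genes was taken under these filters. Leaving out each library gave 2 to 3 calls for the DAM over the GEM, 9 to 11 for PG over SLG, 7 to 9 for PG over SMG and 10 to 11 for SLG over SMG organoids. It gave 10 in PG, 8 to 9 in SLG and 8 to 9 in SMG organoids over tissue, 1 to 3 for PG over SLG, 3 to 4 for PG over SMG and 6 to 10 for SLG over SMG tissue, and 9 to 11 for the interaction. The log2 ratio of summed chemokine CPM of organoids in the DAM over tissue was 1.73 in PG, −0.55 in SLG and 0.14 in SMG with TMM-scaled library sizes, chosen after seeing the data, and 3.73, 0.56 and 2.21 with whole-library totals. The cause of these changes was not tested, beyond the number of genes or samples that the alternative itself sets.

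The replicate numbers were taken as shared numbers only. Correlations of deviations ran from −0.08 to 0.05 between groups both numbered 1 and 2. The GEM group and PG organoids, both numbered 1 and 3, gave 0.31. The largest value, 0.355, joined the GEM group to SMG organoids of the other medium, whose numbers differ. PG organoids against SMG organoids of the DAM, also with differing numbers, gave 0.253. The remaining pairs with differing numbers lay from −0.096 to 0.07. High values were thus not limited to groups with the same numbers. With the replicate block 2 members were called for the DAM over the GEM, where Cxcl3 was −0.02, 7 for PG over SMG organoids and 9 for the interaction, and the other counts were unchanged.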
